A study of Mus musculus with 4 samples.

Results

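The proteasome subunit genes were followed in spatial transcriptome sections of tibial muscle during injury-induced heterotopic ossification (HO), the formation of bone in soft tissue. The members were the gene symbols made of Psma, Psmb, Psmc, Psmd or Psme and a number that held at least 10 UMIs (unique molecular identifiers, each standing for 1 captured RNA molecule) summed over the 4 sections. Of 32285 features, 43 had such a symbol and 42 of them reached the threshold. The members were thus chosen by the sum of their UMI counts over the sections, and the rule used no difference between days. Just inside the threshold lay Psma8, an alpha subunit of testis, with 34 UMIs, 0 of them at day 0, so it entered through the injured sections alone. Just outside lay Psmb11, the catalytic subunit of the thymus, with 3 UMIs. By role the members comprised 8 alpha ring genes, 4 structural beta ring genes, 3 constitutive catalytic genes, 3 immunoproteasome catalytic genes, 6 ATPases and 11 other subunits of the 19S cap, 3 cap assembly chaperones, the 2 PA28 alpha/beta genes and 2 other activators.

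The sections came from Nse-Bmp4 mice on the C57BL/6 strain, aged 6 to 8 weeks, which carry murine Bmp4 cDNA behind the rat neuron-specific enolase promoter. All 4 groups carried the transgene: the day 0 group was uninjured, and the others were taken at day 1, day 3 and day 7 after cardiotoxin injury of the tibial muscle, an injection that kills myofibres. The labels state that 3 muscles were mixed per group, and how they lie on a section was not settled. With 1 section per day and no wild-type section, the differences between days have no replicate check, no test was possible, and every interval below covers counting error only. A spot of the array covers several cells, so fewer cells of a type and less RNA per cell cannot be told apart.

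The sections held 2107, 2667, 3029 and 3032 spots at days 0, 1, 3 and 7, with totals between 16777832 UMIs (day 1) and 56113066 UMIs (day 3). The day 1 section was the shallowest, with a median of 6322 UMIs per spot against 12120 to 21029 in the others, and mitochondrial genes took 17.8% of its UMIs against 11.7% to 13.5%. Between 1539 and 2311 spot barcodes were shared by any pair of sections, the arrays being printed with a common barcode set. The tissue label was checked against 22 adult myofibre genes, which held 31.7%, 17.1%, 10.5% and 18.7% of the UMIs at days 0, 1, 3 and 7. The summed level of 13 monocyte/macrophage markers was 445, 2152, 10197 and 2338 CPM (UMI counts scaled to a common section total), all 13 being higher on each injured day than at day 0. The median of all features with a ratio lay 0.19, 0.56 and 0.65 above 0 on the log2 scale at days 1, 3 and 7 against day 0. Scaled to a total without mitochondrial, haemoglobin and adult myofibre genes, it was -0.06, 0.05 and 0.30. Shares of every other RNA move when myofibre RNA is lost, but the part of that loss in these medians was not tested.

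The proteasome is the barrel-shaped protease that degrades ubiquitin-tagged proteins. Its 20S core stacks alpha rings, which gate the entry, on beta rings, which hold the active sites, and the 19S cap recognises, unfolds and feeds the substrate. In cells exposed to interferon-gamma and in leukocytes, Psmb8, Psmb9 and Psmb10 take the places of Psmb5, Psmb6 and Psmb7 in newly built cores, and the PA28 alpha/beta cap made of Psme1 and Psme2 can dock in place of the 19S cap. This immunoproteasome is known for making peptides that are shown on MHC class I. In muscle, the ubiquitin-proteasome system is known for the breakdown of myofibrillar protein in atrophy.

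The promoter windows of the contrasted genes are shown so that the immunoproteasome genes, which interferon-gamma is known to induce through their promoters, can be set beside Psmb5 and Psmb6. Sequences were from RefSeq on GRCm38.p6 (mm10, the build named in the labels) and matched 35 of the 42 members by symbol; Psmb7 had no entry. Each window runs on the strand of its gene from 120 bases before the annotated start to base 25 after it, and for Psme2, which has 2 entries, the first-listed start was taken. Capitals mark matches, on either strand, to the motifs TTCNNNGAA (the gamma-activated site, GAS), GAAANNGAA (an interferon-stimulated response element type) or TGACNNNGC (an antioxidant response element type).
Psmb8, chr17:34198075-34198219, plus strand: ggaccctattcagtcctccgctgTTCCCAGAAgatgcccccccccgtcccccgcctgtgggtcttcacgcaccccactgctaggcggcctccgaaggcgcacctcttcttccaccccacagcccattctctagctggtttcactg
Psmb9, chr17:34187306-34187450, minus strand: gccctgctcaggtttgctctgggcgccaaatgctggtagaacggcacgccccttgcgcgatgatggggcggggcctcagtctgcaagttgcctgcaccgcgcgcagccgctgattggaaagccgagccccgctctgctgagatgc
Psmb10, chr8:105938368-105938512, minus strand: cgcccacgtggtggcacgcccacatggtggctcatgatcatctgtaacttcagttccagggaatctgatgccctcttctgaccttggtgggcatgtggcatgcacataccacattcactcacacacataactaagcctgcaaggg
Psme1, chr14:55578374-55578518, plus strand: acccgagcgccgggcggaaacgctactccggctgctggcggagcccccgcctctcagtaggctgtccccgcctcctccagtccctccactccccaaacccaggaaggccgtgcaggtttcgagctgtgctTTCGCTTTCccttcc
Psme2, chr14:55591077-55591221, minus strand: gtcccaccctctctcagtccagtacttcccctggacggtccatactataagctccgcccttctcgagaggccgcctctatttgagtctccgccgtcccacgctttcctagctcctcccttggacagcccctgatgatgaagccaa
Psmb5, chr14:54617971-54618115, minus strand: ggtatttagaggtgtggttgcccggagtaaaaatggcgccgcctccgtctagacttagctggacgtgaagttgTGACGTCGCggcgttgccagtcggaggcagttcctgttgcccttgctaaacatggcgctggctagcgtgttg
Psmb6, chr11:70525237-70525381, plus strand: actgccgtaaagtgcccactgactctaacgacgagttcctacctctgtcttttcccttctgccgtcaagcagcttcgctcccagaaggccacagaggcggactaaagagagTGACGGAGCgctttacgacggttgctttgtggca

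The GAS letters were found in the Psmb8 window, the interferon-stimulated type in the Psme1 window after the start, and the antioxidant type in the Psmb5 and Psmb6 windows, with no overlap between matches. Over the full 300-base entries of the table, 8.30% of 32851 promoters held the GAS letters, 8.56% the interferon-stimulated type and 12.4% the antioxidant type, against 2, 5 and 6 of the 35 members. A match is a run of letters only. On chromosome 17 the start of Psmb9 (34187330) and that of Psmb8 (34198195) lie 10865 bases apart, with Tap1, a subunit of the peptide transporter that feeds MHC class I, between them at 34187556 to 34197225. Psmb9 lies on the minus and Psmb8 on the plus strand, so these genes point away from each other. Psme1 and Psme2 lie with starts 12607 bases apart on chromosome 14 and point towards each other.

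As a pool, the proteasome genes held a larger part of the RNA in every injured section than in the uninjured one. Their summed level was 3844, 6381, 6183 and 4902 CPM at days 0, 1, 3 and 7. The same order was seen in single spots of at least 2000 UMIs, where the median spot gave 38.0, 62.8, 60.5 and 46.0 member UMIs per 10000 at days 0, 1, 3 and 7. The spots themselves overlapped between days, from 8.45 to 73.2 at day 0 and from 11.1 to 140 at day 1. The median member had a log2 ratio to day 0 of 0.80, 0.83 and 0.45 at days 1, 3 and 7. Set against the median of all features, 37 of the 41 members with a ratio lay above it at day 1, 29 of 42 at day 3 and 6 of 42 at day 7, so the day 7 pool was higher in CPM but below the typical feature. With edgeR TMM factors, which centre the typical feature, the members' median log2 ratio was 0.61, 0.28 and -0.16, and with DESeq2 size factors 0.61, 0.27 and -0.19. The direction at day 7 therefore turned with the scaling. Below, higher and lower refer to CPM. A positive log2 ratio smaller than the median of all features on its day falls below 0 or close to it under TMM or DESeq2 factors, while a negative one moves further down. The same factors lower day 3 by 0.55 or 0.56 and day 1 by 0.19 on the log2 scale, so the order of the injured days can turn too, as given below for single genes.

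The shift of the pool was broad and of moderate size. At day 1, 11 of 41 members (26.8%) were at least 2-fold higher in CPM than at day 0, beside 17.8% of the 16023 features with a ratio, and 0 were at least 2-fold lower, beside 10.7%. At day 3, 12 of 42 members (28.6%) were at least 2-fold higher, beside 32.4% of 17001 features, and 0 were at least 2-fold lower, beside 8.66%. At day 7, 3 of 42 (7.14%) were at least 2-fold higher, beside 32.8% of 16827 features, and 0 were at least 2-fold lower, beside 2.18%. Psma8, with 0 UMIs at day 0, reached the UMI threshold through the injured sections alone, and without it 11 members were at least 2-fold higher at day 3 and 2 at day 7. In CPM the day 1 count of higher members was above the background share and the others were not, and the 3 comparisons share the day 0 section. Under TMM factors 5, 5 and 0 members were at least 2-fold higher at days 1, 3 and 7, while 14.3%, 18.9% and 15.1% of the features were higher and 13.9%, 17.0% and 6.91% lower. The 5 of 41 members at day 1 (12.2%) thus lay below the background under TMM factors, and the same count lay below 14.3% with DESeq2 size factors and below 13.3% with a total that leaves out mitochondrial, haemoglobin and adult myofibre genes. The 5 at day 1 were Psma7, Psmd8, Psme2, Psmb8 and Psmb9, and the 5 at day 3 were Psmb8, Psmb9, Psmb10, Psme2 and Psma8.

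**Figure D1:**
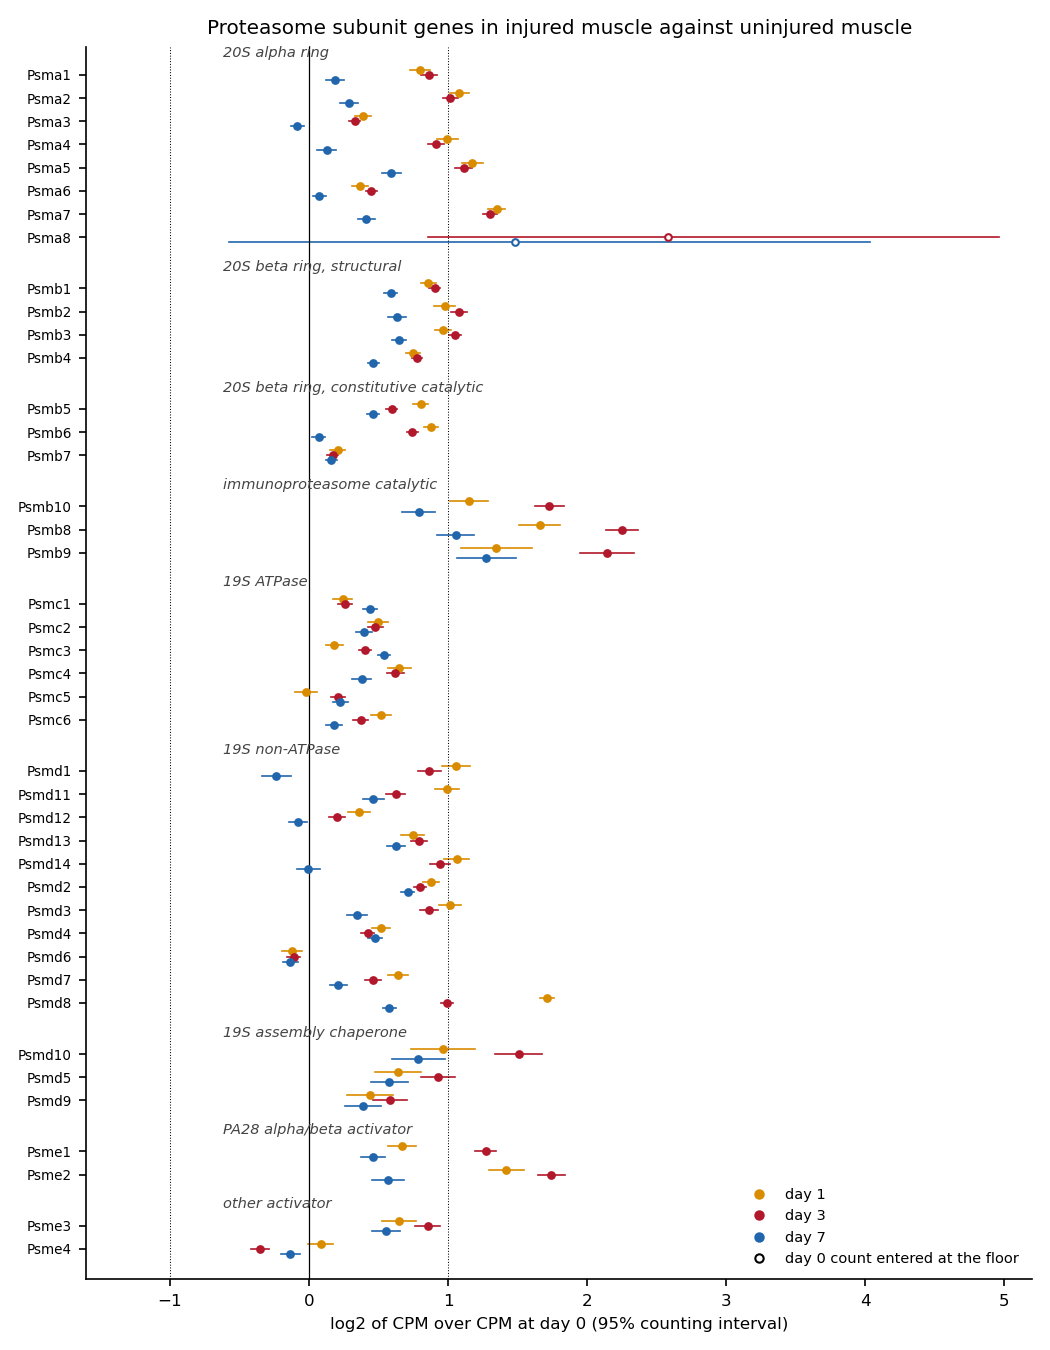
Log2 of the CPM of each proteasome member over its CPM at day 0 (x axis), by role (y axis), for day 1, day 3 and day 7, with the 95% counting interval as a line and dotted lines at a 2-fold change. The immunoproteasome genes Psmb8 (2.25) and Psmb9 (2.14) lie farthest right at day 3 among well-counted genes, Psmd8 (1.71) at day 1, and the ATPases stay between -0.02 and 0.65.

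The alpha ring genes build the gated outer rings of the core. Of the 7 with a ratio at day 1, all were higher than at day 0, with a median log2 ratio of 1.00. The group's median, Psma8 included, was 0.96 at day 3 and 0.24 at day 7. Over the same 7 genes as at day 1, without Psma8, the middle ratio was that of Psma4 (0.91) at day 3 and of Psma1 (0.19) at day 7. Under TMM factors 6 of 8 genes, Psma8 among them, were above day 0 at day 3. At day 7 under TMM factors 1 of 8 was above, which was Psma8 with 0 UMIs at day 0, and Psma1 to Psma7 all lay below day 0. Psma7 had the highest ratio of the well-counted genes at day 1 and day 3, at 92.6 CPM in uninjured muscle and 236, 229 and 123 CPM on the injured days. Its log2 ratio was 1.35 (1.29 to 1.41) at day 1 and 1.30 (1.25 to 1.36) at day 3, so in CPM the first days stood together and day 7 lay closer to day 0. Under TMM factors Psma7 was at least 2-fold higher at day 1 but not at day 3. Psma6 had the lowest at day 1, at 174, 224, 237 and 183 CPM on the 4 days. Psma3 was at 177, 231, 222 and 167 CPM, higher than at day 0 on the first injured days and slightly lower at day 7 (log2 ratio -0.084, -0.13 to -0.04). Psma8, the testis form, was counted at 0, 3, 23 and 8 UMIs, which is at least 5.99-fold higher at day 3 and at least 2.80-fold higher at day 7 when day 0 is entered at a floor of 3 UMIs. The counting interval of that floor ratio was 1.81 to 31.2 at day 3 and 0.67 to 16.4, which includes no change, at day 7.

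The structural beta ring genes, which carry no active site, differed from day 0 by like amounts, all 4 being higher on each day except that 2 lay below day 0 at day 7 under TMM factors. Psmb2 was at 75.1, 148, 158 and 116 CPM at days 0, 1, 3 and 7 and had the highest ratio of the 4 genes at day 1 and day 3. Its order of those days turned under TMM factors. Psmb4 had the lowest on all 3 injured days, at 198, 333, 340 and 274 CPM. The SD of the log2 ratios over the 4 genes was 0.10, 0.14 and 0.08 on the injured days, against 0.37, 0.30 and 0.21 over the 3 constitutive catalytic genes.

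The constitutive catalytic genes were higher than at day 0 in CPM by unequal amounts. Psmb5, which carries the chymotrypsin-like site, was at 171 CPM in uninjured muscle and at 298, 258 and 236 CPM on days 1, 3 and 7. Psmb6, with the caspase-like site, was at 168, 307, 280 and 176 CPM, so its day 7 level was close to that of uninjured muscle (log2 ratio 0.07, 0.02 to 0.12). Psmb7, with the trypsin-like site, was at 205, 237, 231 and 230 CPM, and its largest log2 ratio was 0.21 (0.15 to 0.26). The 3 genes thus differed in how far they stood from day 0, and their summed log2 ratio was 0.63, 0.50 and 0.24 at days 1, 3 and 7. With TMM factors it was 0.44, -0.050 and -0.37, so the direction at day 3 and day 7 turned with the scaling.

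The ATPases of the 19S cap, the ring that unfolds substrates, had the flattest course, with median log2 ratios of 0.37, 0.39 and 0.39 and none at a 2-fold difference on any day, and under TMM factors 1 of 6 was above day 0 at day 3 and 0 of 6 at day 7. Psmc4 had the highest ratio at day 1, at 72.5, 114, 112 and 94.4 CPM on the 4 days. Psmc5 had the lowest, at 109, 108, 126 and 128 CPM. Psmc3 had the highest ratio of the group at day 7, at 165, 188, 219 and 240 CPM. As part of the members' UMIs, Psmc3 took 4.30%, 2.94%, 3.54% and 4.90% at days 0, 1, 3 and 7, a share that does not depend on the scaling between sections.

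The 11 non-ATPase genes of the cap spread more widely, and Psmd8, a lid subunit, stood apart at day 1. Psmd8 was at 144 CPM in uninjured muscle and at 472, 286 and 215 CPM on days 1, 3 and 7, and its day 1 log2 ratio of 1.71 (1.66 to 1.76) was the largest of all members at day 1, with an interval that overlapped that of Psmb8 (1.51 to 1.81). It made up 3.74% of the members' UMIs in uninjured muscle, 7.39% (7.23 to 7.55) on day 1, 4.63% on day 3 and 4.38% on day 7. Psmd14, the deubiquitinase that removes the ubiquitin chain before entry, was at 54.2, 113, 104 and 54.0 CPM, higher at day 1 and day 3 and at the uninjured level at day 7. Psmd1, a scaffold of the cap's base, was at 39.8, 82.9, 72.5 and 33.8 CPM, so it was higher at day 1 and day 3 and lower at day 7 (log2 ratio -0.23, -0.34 to -0.13). Its partner scaffold Psmd2 was at 145, 267, 253 and 237 CPM and had the group's highest ratio at day 7, 0.71. Psmd6, a lid subunit, was the single member below day 0 on all 3 injured days in the whole sections, at 137, 126, 127 and 124 CPM. Its part of the members' UMIs was 3.56%, 1.97%, 2.05% and 2.54%.

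The cap assembly chaperones act in building the base and leave the finished cap. Psmd10, also known as gankyrin, was at 8.41, 16.4, 23.9 and 14.5 CPM at days 0, 1, 3 and 7, and its day 3 log2 ratio was 1.51 (1.34 to 1.68). Psmd5 was at 17.9, 27.9, 34.0 and 26.7 CPM and Psmd9 at 19.7, 26.7, 29.4 and 25.8 CPM. All 3 were highest at day 3 in CPM, but under TMM factors Psmd5 and Psmd9 were highest at day 1, and 1 of 3 was above day 0 at day 7. Among the other activators, Psme3, the nuclear PA28 gamma, was at 33.6, 52.6, 60.7 and 49.3 CPM. Psme4, the PA200 activator, went the other way after day 1 in the whole sections, at 82.7, 87.7, 64.9 and 75.4 CPM. Its log2 ratio at day 3 was -0.35 (-0.42 to -0.28), the lowest of any member on that day.

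The immunoproteasome genes were higher than at day 0 in every injured section and highest at day 3. Psmb8 was at 15.9 CPM (697 UMIs) in uninjured muscle, 50.2 CPM (842 UMIs) on day 1, 75.7 CPM (4248 UMIs) on day 3 and 33.1 CPM (1383 UMIs) on day 7. Psmb9 was at 6.02 CPM (264 UMIs), 15.3 CPM (257 UMIs), 26.5 CPM (1489 UMIs) and 14.6 CPM (609 UMIs) on the same days. Psmb10 was at 21.7 CPM (951 UMIs), 48.1 CPM (807 UMIs), 71.8 CPM (4028 UMIs) and 37.5 CPM (1567 UMIs). All 3 were highest in the same section, and each was still above its day 0 level at day 7. Psmb8 and Psmb9 had the largest log2 ratios of the well-counted members at day 3, 2.25 (2.14 to 2.37) and 2.14 (1.95 to 2.34), and again at day 7, 1.06 (0.92 to 1.19) and 1.27 (1.06 to 1.49). The summed log2 ratio of the 3 genes was 1.38, 2.0 and 0.97 at days 1, 3 and 7 and stayed above 0 under every scaling tried, its lowest value being 0.33 at day 7 with DESeq2 size factors.

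The PA28 alpha/beta genes were also higher in CPM than at day 0 in every injured section, with a smaller summed ratio than Psmb8, Psmb9 and Psmb10. Psme1 was at 45.7, 72.7, 110 and 62.9 CPM at days 0, 1, 3 and 7. Psme2 was at 23.4, 62.5, 78.2 and 34.7 CPM, and its log2 ratio exceeded that of Psme1 at day 1 (1.42 against 0.67) and at day 3 (1.74 against 1.27). On those days the ratio of Psme2 lay within the range of Psmb8, Psmb9 and Psmb10, 1.15 to 1.66 at day 1 and 1.73 to 2.25 at day 3. Both were highest at day 3 in CPM, but the order turned for Psme2 under TMM factors, its log2 ratio being 1.23 on day 1 and 1.19 on day 3. The summed log2 ratio of the pair was 0.97, 1.45 and 0.50, and at day 7 it was -0.11 with TMM factors and -0.14 with DESeq2 size factors. Psme2b, a near-identical copy outside the rule, was at 0.593, 1.31, 1.68 and 1.51 CPM, and how reads shared with such copies were counted is not given in the sources used here.

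**Figure D2:**
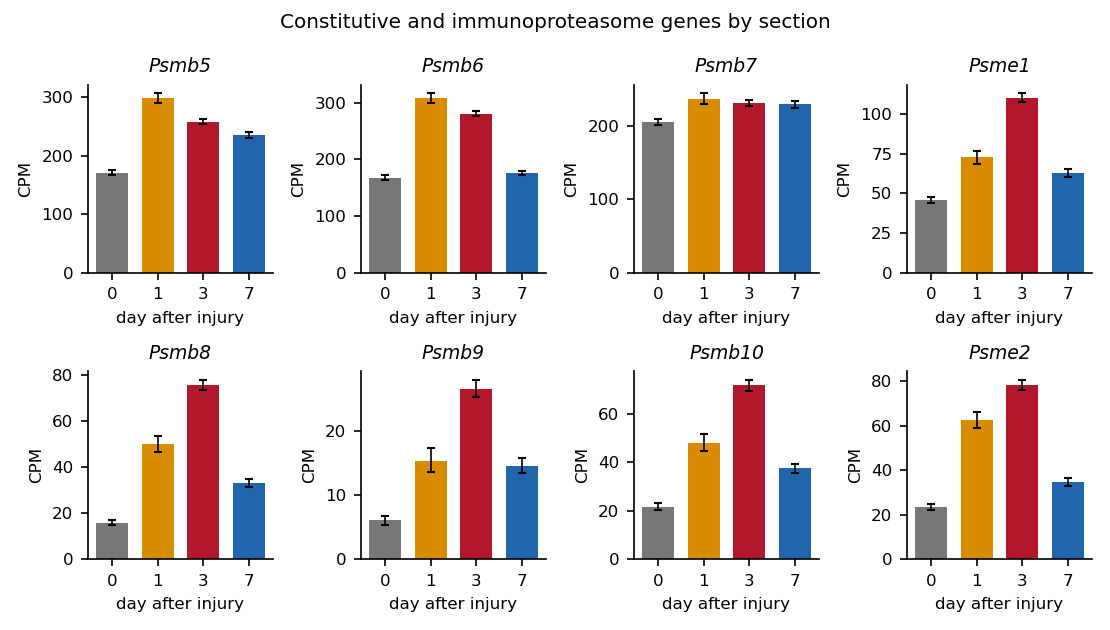
CPM (y axis, from 0) of the constitutive catalytic genes, the immunoproteasome catalytic genes and the PA28 alpha/beta genes in each section (x axis, day after injury, 0 being uninjured), 1 section per bar, with 95% Poisson counting intervals. In CPM, Psmb8, Psmb9, Psmb10, Psme1 and Psme2 are highest at day 3 (for Psme2 the order of days 1 and 3 turns under TMM factors), while Psmb5 and Psmb6 are highest at day 1.

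The make-up of the catalytic subunits shifted towards the immunoproteasome genes after injury. Psmb8, Psmb9 and Psmb10 made up 7.42% (7.10 to 7.75, exact Clopper-Pearson interval at 95%) of the 25765 UMIs of the 6 catalytic genes at day 0. The share was 11.9% (11.4 to 12.4) of 16048 UMIs on day 1, 18.4% (18.1 to 18.8) of 52953 UMIs on day 3 and 11.7% (11.4 to 12.1) of 30388 UMIs on day 7. Day 1 and day 7 thus gave like shares, and day 3 stood above both. Since each share is taken within a section, the scaling between sections does not enter, but the capture of each transcript does, so the shares are read between days and not as protein ratios.

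All 3 pairs moved the same way at unequal steps. Psmb8 of Psmb8 and Psmb5 was 8.50%, 14.4%, 22.7% and 12.3% at days 0, 1, 3 and 7. Psmb10 of Psmb10 and Psmb7 was 9.55%, 16.9%, 23.7% and 14.0%. Psmb9 of Psmb9 and Psmb6 was 3.47% (3.07 to 3.90), 4.75% (4.19 to 5.35), 8.65% (8.23 to 9.08) and 7.65% (7.07 to 8.25). The Psmb9 pair therefore differed from the other pairs in order: its day 7 share lay above its day 1 share, with Psmb6 close to its uninjured level at day 7, whereas the Psmb8 and Psmb10 pairs were lower at day 7 than at day 1.

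**Figure D3:**
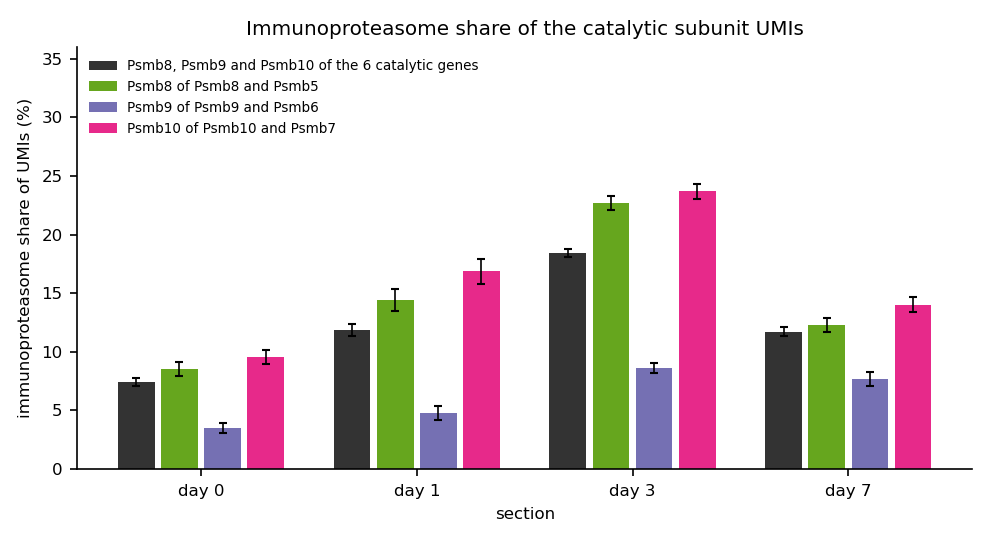
Share of UMIs (y axis, %) from the immunoproteasome gene in all 6 catalytic genes together and in each of the 3 pairs, by section, with exact 95% intervals. The share over all 6 genes was 7.42% at day 0 and 18.4% at day 3, and the Psmb9 pair alone has a higher bar at day 7 than at day 1.

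Because myofibre RNA was lower after injury, the members were also counted in myofibre-rich spots, those in which the adult myofibre genes held at least 20% of the UMIs. Such spots numbered 2085, 790, 813 and 1744 at days 0, 1, 3 and 7. The threshold did not make the days equal, the adult myofibre genes holding 318916 CPM in these spots in uninjured muscle and 243019, 244376 and 245526 CPM on the injured days. Within them the members' sum was 3841 CPM (3823 to 3860) in uninjured muscle, then 5837 CPM (5777 to 5898) on day 1, 5726 CPM (5676 to 5777) on day 3 and 4634 CPM (4605 to 4663) on day 7. The order of the days was that of the whole sections, with log2 ratios to day 0 of 0.60, 0.58 and 0.27. Taken singly, 38 of 41 members were higher than at day 0 in these spots at day 1, 41 of 41 at day 3 and 37 of 42 at day 7, beside 46.0%, 58.4% and 76.8% of all features with a ratio in the same spots. Above the median of those features lay 39 of 41 members at day 1, 40 of 41 at day 3 and 21 of 42 at day 7. At day 7 the members' median log2 ratio (0.30) was thus that of the typical feature (0.30). Psmd6 and Psme4, which lay below day 0 in the whole section at day 3, had log2 ratios of 0.21 and 0.28 in these spots on that day. At least 2-fold higher were 5, 3 and 1 members (12.2%, 7.32% and 2.38%), all below the background of 15.8%, 15.7% and 15.1% of the features, and 0 were at least 2-fold lower, beside 15.2%, 7.8% and 2.27%. The 1 at day 7 was Psma8, with 4 UMIs in these spots against 0 at day 0, which was entered at the floor. The summed Psmb8, Psmb9 and Psmb10 level in the same spots was 43.1, 74.4, 84.8 and 62.3 CPM, with log2 ratios of 0.79 (0.64 to 0.94), 0.98 (0.85 to 1.10) and 0.53 (0.43 to 0.63), against 1.38, 2.0 and 0.97 in whole sections.

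The constitutive genes did not share this gap. In the myofibre-rich spots Psmb5, Psmb6 and Psmb7 summed to 544, 900, 762 and 637 CPM, and in the remaining spots of the injured sections to 810, 771 and 646 CPM, close to the myofibre-rich value of the same day at days 3 and 7. The immunoproteasome catalytic genes summed to 136, 190 and 108 CPM in the remaining spots at days 1, 3 and 7, each above the myofibre-rich value of its section. The immunoproteasome share was 7.64% (6.98 to 8.33), 10.0% (9.34 to 10.7) and 8.92% (8.47 to 9.39) in the myofibre-rich spots and 14.4%, 19.8% and 14.4% in the remaining spots. At day 0 the myofibre-rich share was 7.34% (7.03 to 7.67), so at day 1 the interval in myofibre-rich spots overlapped it. The monocyte/macrophage markers summed to 433, 1354, 2588 and 1361 CPM in the myofibre-rich spots, so these markers were higher in them too, and their part in the result was not tested. Only 22 spots fell outside the myofibre-rich set at day 0, with a share of 14.6% (10.6 to 19.3).

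**Figure D4:**
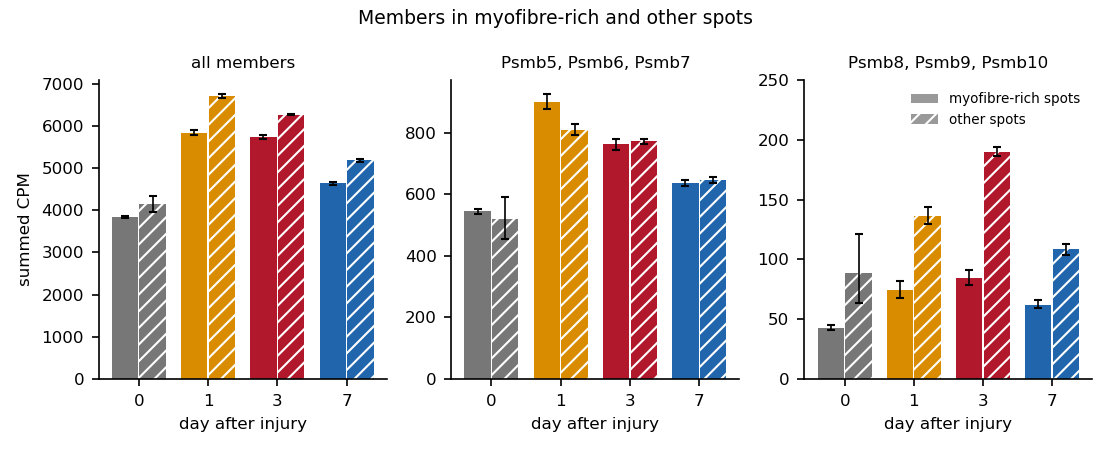
Summed CPM (y axis, from 0) of all members, of Psmb5, Psmb6 and Psmb7, and of Psmb8, Psmb9 and Psmb10, by section (x axis, day after injury), in spots with at least 20% adult myofibre UMIs (plain bars) and in all other spots (hatched bars), with 95% Poisson counting intervals. At day 3 the immunoproteasome catalytic genes are at 84.8 CPM in myofibre-rich and 190 CPM in other spots, while the constitutive genes are at 762 and 771 CPM.

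Within a section, the immunoproteasome share was highest in the spots richest in interferon-response or monocyte/macrophage RNA. Spots with at least 2000 UMIs were split into 4 equal bins by the share of their UMIs in 27 interferon-response genes, none of them a proteasome gene. From the lowest to the highest bin the share was 9.95%, 12.2%, 17.6% and 27.8% at day 3 and 7.30%, 8.29%, 10.9% and 20.7% at day 1. It was 7.71%, 9.38%, 10.98% and 18.1% at day 7 and 6.22%, 6.45%, 7.64% and 9.50% at day 0, so the uninjured section showed the same order over a smaller range. Binned by the 13 monocyte/macrophage markers, the highest bins were at 9.40%, 20.5%, 27.3% and 15.2% at days 0, 1, 3 and 7 and the lowest at 6.13%, 7.59%, 9.28% and 8.11%. Binned by adult myofibre genes the order ran the other way, with 5.28%, 7.26%, 10.0% and 8.22% in the bins richest in myofibre RNA and 10.2%, 21.2%, 26.8% and 17.2% in the poorest. The 3 lists are not separate axes, since at day 3 the spots richest in interferon-response RNA also held 17544 CPM of monocyte/macrophage markers against 3345 CPM in the poorest, and which of these goes with the share was not tested.

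**Figure D5:**
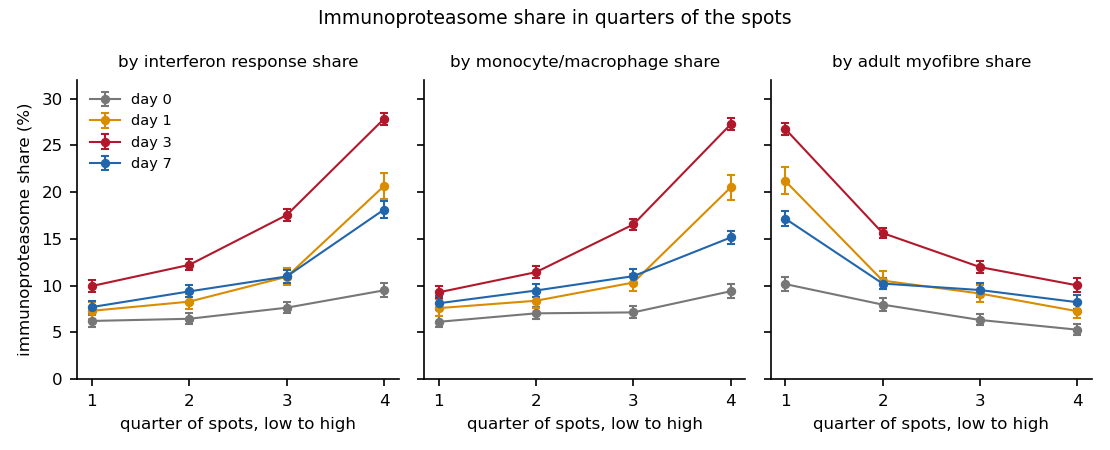
Share of Psmb8, Psmb9 and Psmb10 in the UMIs of the 6 catalytic genes (y axis, %) in 4 equal bins of the spots of each section (x axis, from the lowest to the highest), binned by interferon-response, monocyte/macrophage or adult myofibre share, with exact 95% intervals. The day 3 line reaches 27.8% in the highest interferon-response bin, and the day 0 line stays between 5.28% and 10.2% over all panels.

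The other members differed less between these bins than the immunoproteasome genes did. At day 3 the constitutive catalytic genes summed to 749, 790, 794 and 744 CPM from the lowest to the highest interferon-response bin, while Psmb8, Psmb9 and Psmb10 summed to 82.9, 110, 169 and 287 CPM and Psme1 with Psme2 to 115, 141, 180 and 280 CPM. The 37 members outside the immunoproteasome set summed to 5480, 5791, 5966 and 5927 CPM. At day 3 these bins thus held a nearly flat constitutive level and an immunoproteasome level that was higher from bin to bin. On other days the other members were not flat: from the lowest to the highest bin the 37 members went from 5651 to 6626 CPM by interferon response at day 1, and from 4035 to 5000 CPM by monocyte/macrophage markers at day 7, where the constitutive genes went from 539 to 684 CPM. Psmb8, Psmb9 and Psmb10 went from 65.5 to 218 CPM and from 47.6 to 122 CPM over the same bins.

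Spearman's rho between UMI sums was also computed across spots thinned to 2000 UMIs, over 2090, 2154, 3020 and 2948 spots at days 0, 1, 3 and 7. Such sums are sparse, the spots share a library, and rho is given as a description only. For the 5 immunoproteasome genes and the interferon-response list it was 0.01, 0.21, 0.21 and 0.08. With the monocyte/macrophage markers rho of these genes was higher on each day, at 0.04, 0.24, 0.30 and 0.13. With the peptide loading genes of MHC class I, described below, rho was also higher on each day, at 0.04, 0.26, 0.28 and 0.09. For the other 37 members and a list of ubiquitin and ubiquitin-ligase genes rho was 0.02, 0.37, 0.13 and 0.16. The day 1 value was the highest of the lists compared with those members.

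Genes that work around the proteasome were counted from lists of known members. Of 17 assembly and regulation genes, 3, 5 and 1 were at least 2-fold higher at days 1, 3 and 7, which is no larger a share than the 17.8%, 32.4% and 32.8% of all features, and 0 were at least 2-fold lower on any day, with median log2 ratios of 0.31, 0.65 and 0.36. Sem1, a small lid subunit named outside the symbol rule, was at 242, 461, 509 and 296 CPM at days 0, 1, 3 and 7. Pomp, the chaperone of core assembly, was at 128, 224, 240 and 184 CPM. Zfand5, a ubiquitin-binding protein known from muscle atrophy, was at 217, 224, 148 and 219 CPM. Nfe2l1, the transcription factor known for restoring proteasome gene expression, was at 118, 146, 164 and 141 CPM.

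The 16 genes of ubiquitin conjugation and delivery counted 5, 3 and 2 at least 2-fold higher and 1, 1 and 0 at least 2-fold lower. Read against the same shares of all features, the count of higher genes was above the background at day 1 and below it at days 3 and 7. Among those with most UMIs, Rps27a and Ubb encode ubiquitin itself: Rps27a was at 597, 1658, 1910 and 879 CPM and Ubb at 632, 1921, 1133 and 763 CPM. Trim63 and Fbxo32, the muscle ubiquitin ligases known from atrophy, were chosen for naming after their values were seen. Trim63 was at 278, 1176, 516 and 223 CPM, and Fbxo32 at 25.6, 321, 90.0 and 79.9 CPM. Both were highest at day 1, the day on which Psmd8 and the summed members were highest, and Fbxo40, another muscle ligase, went the other way, at 241, 95.4, 85.1 and 231 CPM.

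The peptide loading genes of MHC class I, which take up what the proteasome cuts, were all higher in CPM than at day 0 on each injured day. However, Tapbp and Erap1 at day 1 and Erap1 at day 7 lay below day 0 when the sections were scaled to the total without mitochondrial, haemoglobin and adult myofibre genes. TMM and DESeq2 factors lower day 7 further than that total does, so Erap1 lay below day 0 at day 7 under them too. Of 13 genes, 3, 11 and 9 were at least 2-fold higher in CPM at days 1, 3 and 7, with median log2 ratios of 0.59, 1.60 and 1.09. The counts at days 3 and 7 were above the 32.4% and 32.8% of all features. The 3 of 13 at day 1 were near the 17.8% of all features. B2m, the light chain of class I, was at 322, 406, 1177 and 657 CPM. H2-D1, a class I heavy chain, was at 158, 306, 683 and 337 CPM, and Calr, a loading chaperone, at 222, 376, 559 and 408 CPM. Tap1, which lies between Psmb9 and Psmb8, was at 7.00, 29.98, 35.3 and 22.9 CPM, with the order of days 1 and 3 turned under TMM factors. B2m, H2-D1 and Calr were highest at day 3, as were Psmb8, Psmb9 and Psmb10, whereas at day 1 most loading genes were nearer to day 0 than those 3.

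The interferon-response list counted 14, 19 and 22 of 27 genes at least 2-fold higher at days 1, 3 and 7, with 1, 0 and 0 at least 2-fold lower, and the counts of higher genes were above the share of all features. Bst2 was at 47.3, 108, 187 and 97.2 CPM and Irf7 at 5.81, 43.8, 83.7 and 23.9 CPM. Both were highest at day 3, as the immunoproteasome genes were. The T and NK cell markers summed to 1.23, 1.55, 16.5 and 9.28 CPM, and Ifng itself was counted at 2, 0, 2 and 1 UMIs. The neutrophil markers summed to 6.29, 176, 56.8 and 19.7 CPM and were highest at day 1. The part of these cell types in the immunoproteasome share was not tested.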

How the data were processed

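Spatial RNA was counted on 4 fresh frozen Visium sections, 1 per day, grouped by the labels. For every gene and spot the authors deposited unnormalized UMI counts, which come from Space Ranger: version 1.2.0 per the file headers, and without a version, on the mm10 build, per the labels. Every deposited spot (10835 in all) was used, positions and images were not, and no doublet caller or deconvolution was run on spots that hold several cells. The members and gene lists were chosen with earlier results of these data known, so no count over them is independent support.

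Each section's spots were added up and expressed as CPM. Sums under 3 UMIs were raised to that floor, and features at or under 3 UMIs in both sections got no ratio, a refinement of the plan made after the data were seen. Features needed 10 UMIs over the 4 sections. A ratio of at least 2 or at most 0.5 was counted, and no test was run, there being 1 section per day. Intervals (95%) are exact Poisson for CPM, conditional binomial for ratios and Clopper-Pearson for shares, and cover counting error only. Named genes were the 8 contrasted catalytic and PA28 genes, the 3 highest and 3 lowest ratios of each day at 10 CPM or more, the ends of each role group, and the 3 genes with most UMIs of each list described, 2 of which are not reported here. Genes named outside that rule, chosen after their values were seen, were Psma3, Psmd5, Psmd9, Psmd14, Trim63, Fbxo32, Fbxo40, Nfe2l1, Tap1 and Ifng. The 17 lists held 188 genes, of which 186 were among the features. Alternatives were edgeR 4.0.16 TMM factors, DESeq2 1.42.0 size factors, totals that leave out haemoglobin, myofibre and mitochondrial genes, deeper spots, a fold of 1.5, a filter at 10 CPM, other myofibre thresholds and other thinning depths. The functions were tested on simulated data. R 4.3.3 and Python 3.11.15 were used, the latter with pandas 2.3.3, SciPy 1.17.1 and NumPy 2.4.6.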

Additional observations from a re-analysis of the deposited data

Results flagged for a closer look

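There were 3 members that lay on opposite sides of day 0 on different injured days in CPM, with counting intervals that left out 0 on both days; the differences between days were not tested, since each day is 1 section. Psmd1 had log2 ratios of 1.06 and 0.87 on days 1 and 3, and of -0.23 on day 7. Psma3 had 0.39 and 0.33 against -0.084, and Psmd12, a lid subunit, 0.36 and 0.20 against -0.080. All 3 comparisons share the day 0 section. Under edgeR TMM factors Psma3 and Psmd12 were also below day 0 at day 3, and Psmd1 was not.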

How the results depend on the processing

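The scaling between sections moved the day ratios most. At days 1, 3 and 7 the members at least 2-fold higher numbered 11, 12 and 3 in CPM, 5, 5 and 0 with edgeR TMM factors, 5, 5 and 0 with DESeq2 size factors, and 5, 5 and 1 with a total that leaves out haemoglobin, adult myofibre and mitochondrial genes; with a fold of 1.5 they numbered 28, 28 and 11. Without Psma8, an alternative chosen after seeing the data, they numbered 11, 11 and 2. The median member log2 ratio (0.80, 0.83, 0.45) was 0.61, 0.28 and -0.16 with TMM factors, 0.61, 0.27 and -0.19 with size factors and 0.54, 0.32 and 0.10 with the reduced total. The constitutive catalytic sum (0.63, 0.50, 0.24) was 0.44, -0.050 and -0.37, then 0.44, -0.061 and -0.40, then 0.38, -0.0087 and -0.11 in the same order of settings. The immunoproteasome catalytic sum (1.38, 2.0, 0.97) was 1.19, 1.45 and 0.36, then 1.19, 1.44 and 0.33, then 1.13, 1.49 and 0.62, and kept its direction throughout. The PA28 alpha/beta sum (0.97, 1.45, 0.50) was 0.78, 0.90 and -0.11, then 0.78, 0.89 and -0.14, then 0.71, 0.94 and 0.15. These scalings shift every feature of a day by 1 constant, which is the cause of the moves. The immunoproteasome share of catalytic UMIs does not depend on them: adding Psme1 and Psme2 gave 17.2%, 22.8%, 32.01% and 22.2% at days 0, 1, 3 and 7, and the unweighted mean of the 3 pairs 11.3% at day 7. In myofibre-rich spots the log2 ratio of the members' sum (0.60, 0.58, 0.27) was 0.72 at day 1 and 0.36 at day 7 with a 10% threshold, 0.50 at day 3 and 0.23 at day 7 with 30%, 0.24 at day 7 in the richest of 4 equal bins, and 0.51, 0.44 and 0.13 with the reduced total. The 30% threshold kept only 17, 31 and 136 spots at days 1, 3 and 7, against 1377 at day 0. With spots of at least 4000 UMIs the day 1 share in the highest bin was 17.4% by interferon response and 17.1% by monocyte/macrophage markers. Spearman's rank correlation of the immunoproteasome genes with the interferon-response list was 0.14 at day 1 and 0.13 at day 3 at 1000 UMIs, 0.32 at day 3 and 0.14 at day 7 at 4000 UMIs, and 0.14 and 0.093 at days 1 and 3 given the myofibre share. That of the other members with the ubiquitin list was 0.24, 0.062 and 0.093 at days 1, 3 and 7 at 1000 UMIs and 0.51, 0.21 and 0.27 at 4000 UMIs. Only spots that hold the thinning depth enter, so the depth and the set of spots change together. Apart from the constant shift of the scalings, the causes were not tested. Leaving out spots under 1000 UMIs, the filter at 10 CPM and keeping genes at the floor (an alternative chosen after seeing the data) left the counts within 1.5 times and the other values within their counting spread. No replicate could be left out, and the shallow day 1 section limits genes such as Psmb9 (257 UMIs) most.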
